A study of Mus musculus with 8 samples.

Results

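The small leucine-rich proteoglycans (SLRPs) examined were 8 genes chosen by name: Bgn, Dcn, Lum, Fmod, Ogn, Prelp, Aspn and Podn. All 8 were found in both deposited tables, among 40562 genes counted in astrocyte cultures and 47729 in neural stem cell (NSC) cultures. The study compared wild type (WT) C57BL/6 mice with S89G-DMP1 mice, a knock-in line in which the glycosylated serine of dentin matrix protein 1 (Dmp1) is replaced by glycine. RNA was sequenced from cortical astrocyte cultures grown in serum, with 1 library per genotype (WT-AST, S89G-AST), and from neurospheres of the sub-ventricular zone, with 3 libraries per genotype (WT-NSC, S89G-NSC). The cultures were identified by GFAP staining (astrocytes) or by sox2 and nestin staining (NSCs). The labels give an age of 10 weeks, and according to the methods, astrocytes were cultured from mice of 3 months. Whether the 3 NSC libraries of a genotype came from separate cultures or animals is not stated, so p-values measure only the spread between these libraries.

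SLRPs are secreted proteins of the extracellular matrix, built on a short core of leucine-rich repeats. They bind collagen fibrils, set fibril thickness and spacing, and hold growth factors such as TGF-β in the matrix. Several carry glycosaminoglycan chains: chondroitin or dermatan sulfate on biglycan (Bgn) and decorin (Dcn), keratan sulfate on lumican (Lum) and fibromodulin (Fmod). In the brain they are known mainly from the meninges and the walls of blood vessels.

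The members lie at separate loci, and several sit in clusters with other SLRP genes (GRCm38, GENCODE M21). Bgn (ENSMUSG00000031375) is at chrX:73483602-73495933. Prelp (ENSMUSG00000041577, chr1:133910304-133921414) and Fmod (ENSMUSG00000041559, chr1:134037254-134048277) share a cluster of 151.1 kb with Optc. Dcn (ENSMUSG00000019929, chr10:97479609-97518143) and Lum (ENSMUSG00000036446, chr10:97565128-97572703) share 202.8 kb with Kera and Epyc. Aspn (ENSMUSG00000021388, chr13:49544443-49567565) and Ogn (ENSMUSG00000021390, chr13:49608046-49624501) share 119.7 kb with Ecm2 and Omd, inside the span of Cenpp on the opposite strand. Podn (ENSMUSG00000028600) is at chr4:108014791-108096445.

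The promoters of 6 of the 8 members were in the RefSeq table (GRCm38.p6), and Dcn and Lum were not among them. The last 120 bases before the start are shown for these 6, since the members below differ in direction between loci and these are the sequences at their starts. They lie at chrX:73483481-73483600 (plus strand) for Bgn, chr1:133921402-133921521 (minus strand) for Prelp, chr1:134037134-134037253 (plus strand) for Fmod, chr4:108031955-108032074 (minus strand) for the first of the 2 listed starts of Podn, chr13:49607895-49608014 (plus strand) for Ogn and chr13:49544323-49544442 (plus strand) for Aspn. Capitals mark the GC box letters GGGCGG on either strand.
Bgn: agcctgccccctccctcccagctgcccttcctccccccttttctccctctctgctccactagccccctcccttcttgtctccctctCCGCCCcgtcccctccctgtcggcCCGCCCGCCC
Prelp: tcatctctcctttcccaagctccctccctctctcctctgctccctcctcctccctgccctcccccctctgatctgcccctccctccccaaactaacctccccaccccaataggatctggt
Fmod: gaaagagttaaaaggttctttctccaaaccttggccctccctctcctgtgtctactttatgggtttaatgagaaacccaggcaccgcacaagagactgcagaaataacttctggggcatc
Podn: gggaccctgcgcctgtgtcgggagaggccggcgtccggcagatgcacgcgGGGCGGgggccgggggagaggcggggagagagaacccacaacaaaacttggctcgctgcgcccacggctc
Ogn: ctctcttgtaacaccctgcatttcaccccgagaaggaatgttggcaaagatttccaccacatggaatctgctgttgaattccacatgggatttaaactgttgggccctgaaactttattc
Aspn: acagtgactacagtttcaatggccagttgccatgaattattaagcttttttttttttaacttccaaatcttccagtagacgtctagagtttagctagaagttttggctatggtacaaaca
The GC content of these windows was 71.7% for Bgn, 73.3% for Podn, 61.7% for Prelp, 46.7% for Fmod, 44.2% for Ogn and 35.0% for Aspn, against a median of 54.2% over all promoters. In the 250 bases before the start, GGGCGG was found on either strand at 3 places in Bgn (2 of them overlapping). Podn had it at 2 places before its first listed start and 0 before the second, and 32.9% of 27025 promoters held it. TATAAA, searched the same way, was found only in Ogn (229 and 227 bases before the start, overlapping) and Aspn (207 and 178 bases), and 13% of promoters held it. The AP-1 letters TGANTCA were in none of the 6 windows and in 6.87% of all promoters. A match is a description of the letters only.

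Depth was 14008670 counted reads in WT-AST, 13016924 in S89G-AST and 2354615 to 2588130 per NSC library. Dmp1 itself had 2 reads in WT-AST and 119 in S89G-AST (at least 34.9-fold higher, with WT-AST set to the floor of 3 reads), and 18, 21 and 16 reads in WT-NSC against 6, 3 and 5 in S89G-NSC. A point mutation need not change this count, so it does not check the labels. The WT-AST library held few reads of some defining astrocyte genes. Aqp4, the endfoot water channel, had 8 reads, the glutamate transporter Slc1a3 had 8 and Gfap had 90, against 4051, 3877 and 901 in S89G-AST. Not all astrocyte markers were so far apart: Gja1 had 1165 reads in WT-AST and 1913 in S89G-AST, and Sox9 had 539 and 1820. S100b was higher in WT-AST, with 64 and 30 reads. The low counts of Aqp4, Slc1a3 and Gfap go against the cell type that the label gives for WT-AST. No value here checks which genotype either AST library has, so every AST direction below rests on the labels as given. The summed level of the 12 astrocyte markers was 179 CPM (reads scaled to a common library size) in WT-AST and 1294 CPM in S89G-AST, with 1 of the 12 at 0 in each. All 10 NSC markers had reads in the NSC libraries, with a summed level of 4550 to 5071 CPM. The AST libraries also differed in sex-linked genes, with Xist at 12172 reads in WT-AST and 74 in S89G-AST and Ddx3y at 0 and 1277 reads. The sex of the cells and the genotype cannot be told apart there.

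In WT-AST, Bgn, Prelp, Dcn and Fmod were well expressed, at FPKM ranks 7, 72, 169 and 566 of 20629 genes listed above 0, and all 4 were lower in S89G-AST. Podn (rank 2854), Ogn (7856), Lum (8051) and Aspn (16485) were further down. The 8 genes together took 0.84% of the counted reads in WT-AST (117660 reads) and 0.223% in S89G-AST (29049 reads). Their summed level was 9293 CPM in WT-AST and 2017 CPM in S89G-AST (CPM scaled by TMM, a factor that corrects for library composition), 4.61-fold lower. Biglycan made up most of this sum, and without it the remaining 7 members went from 2932 to 1057 CPM, 2.77-fold lower. These totals set both libraries side by side without a replicate, so the only error given below is the 95% counting interval (exact, from the reads), and no value has a test. In bulk cultures, fewer cells of a type and less RNA per cell cannot be told apart.

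Of the 8 members, 6 were at least 2-fold lower in S89G-AST, as were 12.8% of all 15680 genes compared (10 counts or more in WT-AST or S89G-AST), and 2 were at least 2-fold higher, as were 17.3%. The median log2 ratio (TMM-scaled CPM, prior count of 2) was -1.51 over the members and 0.01 over all genes. Scaled by library size alone, the median of all genes moved to 0.30 and that of the members to -1.22, and the all-gene split went from 2713 higher and 2010 lower to 3487 higher and 1515 lower. With that scaling 5 members were at least 2-fold lower and 2 higher.

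**Figure D1:**
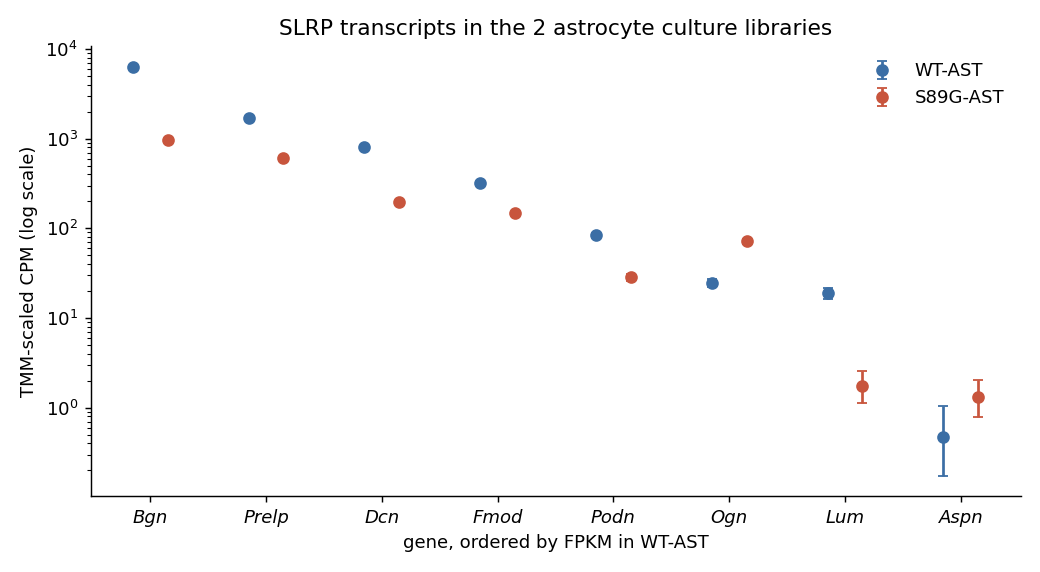
TMM-scaled CPM (log axis) of each SLRP gene in the WT-AST and S89G-AST libraries, with 95% counting intervals as bars, which are smaller than the points for abundant genes. 6 genes are lower in S89G-AST, and Ogn and Aspn are higher.

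Among the class I members, Bgn and Dcn were lower and Aspn was higher. Biglycan, which also acts as a ligand of Toll-like receptors, had 80542 reads (6361 CPM) in WT-AST and 13831 reads (960 CPM) in S89G-AST. This was a log2 ratio of -2.73 (counting interval -2.75 to -2.70), or 6.62-fold lower. By the authors' FPKM, which divides by gene length, it ranked 7 in WT-AST and 59 of 21156 genes in S89G-AST. Bgn is X-linked, and the 479 X-linked protein-coding genes had a median log2 ratio of 0.10 against -0.02 for 13462 autosomal ones. Decorin, which coats collagen fibrils and binds TGF-β, EGFR and MET, went from 10196 reads (805 CPM) in WT-AST to 2826 reads (196 CPM) in S89G-AST. Its log2 ratio was -2.04 (-2.10 to -1.98), and its FPKM rank went from 169 to 798. Asporin (Aspn), which has an aspartate stretch and lacks glycosaminoglycan chains, was scarce in both libraries. It had 6 reads (0.474 CPM) in WT-AST and 19 reads (1.32 CPM) in S89G-AST, a log2 ratio of 1.24 with a wide interval of 0.10 to 3.09. Aspn shares 7 exonic bases with Cenpp, which had 17 and 68 reads, and no use of strand in the counting is stated.

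All class II members were lower in S89G-AST. Lumican, a keratan sulfate proteoglycan of the cornea and connective tissue, is much rarer than fibromodulin and Prelp here. It had 238 reads (18.8 CPM) in WT-AST and 25 reads (1.74 CPM) in S89G-AST, for a log2 ratio of -3.33 (-4.09 to -2.84). Fibromodulin, which competes with lumican for collagen, had 4021 reads (318 CPM) and 2110 reads (147 CPM). Its log2 ratio of -1.11 (-1.19 to -1.04) was the smallest of the 6 lower members, and by library size alone it was -0.82, short of 2-fold. Prelp, which binds heparan sulfate and tethers basement membranes to collagen, was the second most abundant member. It went from 21283 reads (1681 CPM) to 8800 reads (611 CPM), a log2 ratio of -1.46 (-1.50 to -1.42). Prelp shares 350 exonic bases with the antisense gene Gm15851, which had only 6 and 2 reads.

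The remaining members moved apart. Podocan (Podn, class V), a collagen-binding protein found in kidney podocytes and smooth muscle, had 1063 reads (84.0 CPM) in WT-AST and 409 reads (28.4 CPM) in S89G-AST. Its log2 ratio was -1.56 (-1.73 to -1.40). Osteoglycin (Ogn, class III), also called mimecan, was the 1 well-counted member that was higher in S89G-AST. It had 311 reads (24.6 CPM) in WT-AST and 1029 reads (71.4 CPM) in S89G-AST, a log2 ratio of 1.53 (1.36 to 1.73), and its exons share no base with Cenpp.

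Ordered by FPKM, the members in WT-AST ran from Bgn (3933) through Prelp (685), Dcn (396), Fmod (157), Podn (38.9), Ogn (8.74) and Lum (8.19) to Aspn (0.183). The counting intervals of neighbours in this order did not overlap except for Ogn (7.80 to 9.77) and Lum (7.18 to 9.29). In S89G-AST the first 4 kept their places, with Bgn at 727, Prelp at 305, Dcn at 118 and Fmod at 88.8 FPKM. Ogn (31.1) stood above Podn (16.1) there, and Lum (0.926, interval 0.599 to 1.37) and Aspn (0.624, 0.376 to 0.975) overlapped. Bgn was 75.3% of the summed FPKM of the members in WT-AST and 56.5% in S89G-AST, while Prelp was 13.1% and 23.7% and Ogn 0.167% and 2.42%. The make-up of the SLRP transcripts differed between the libraries as well as their total.

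Counted members of the same cluster shared a direction. In the chromosome 1 and chromosome 10 clusters, Prelp, Fmod, Dcn and Lum were all at least 2-fold lower, Optc had 15 and 18 reads (log2 ratio 0.07, -0.99 to 1.17 by counting), and Kera and Epyc had no reads. In the chromosome 13 cluster, Ogn and Aspn were higher, Ecm2 had 119 and 183 reads (log2 ratio 0.43) and Omd, which encodes osteomodulin, had 149 and 150 reads (-0.17). Of 10 SLRP genes that were not members, 7 were counted, with 1 at least 2-fold higher, 2 at least 2-fold lower and a median log2 ratio of -0.17 (0.11 by library size alone). Tsku, a secreted modulator of Wnt and BMP signals, was the most abundant of these at 62.6 CPM in WT-AST and 44.2 CPM in S89G-AST (-0.50). Chadl was at 4.03 and 1.39 CPM (-1.44), and it shares 1023 exonic bases with L3mbtl2 on the opposite strand.

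**Figure D2:**
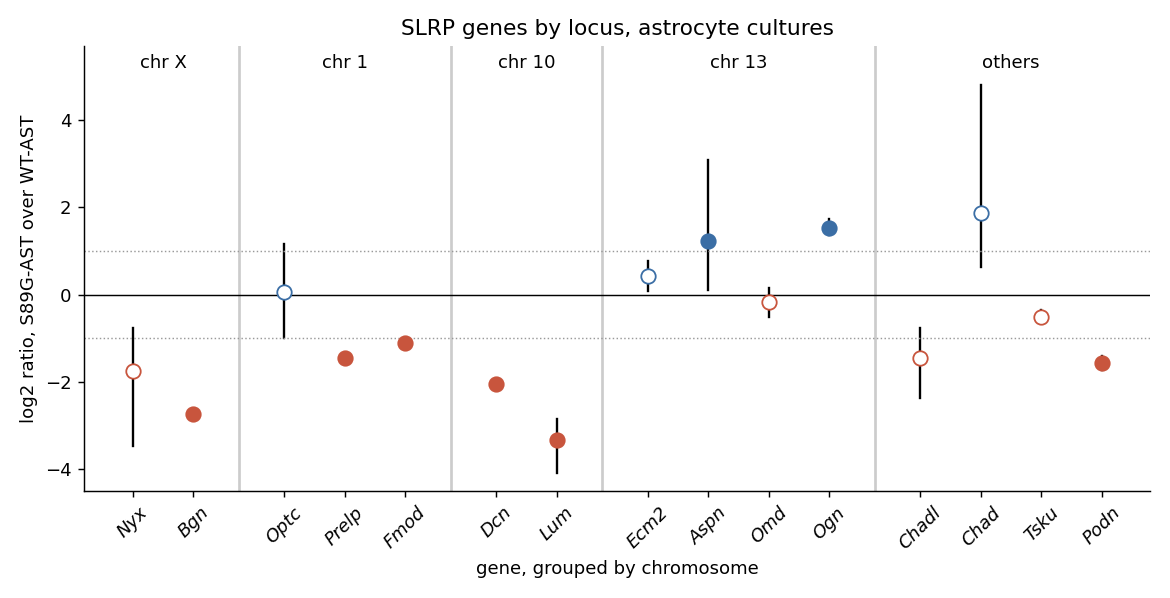
Log2 ratio of TMM-scaled CPM, S89G-AST over WT-AST, for the SLRP genes counted, grouped by chromosome, with 95% counting intervals as lines (filled, the 8 members; open, other SLRPs; dotted lines, 2-fold). Members on chromosomes X, 1 and 10 lie below 0, and the chromosome 13 members Aspn and Ogn lie above.

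The matrix proteins that SLRPs bind were mostly lower, with exceptions, and the collagens moved in both directions. Of 15 fibrillar collagens and their partners, 3 were at least 2-fold higher and 5 lower. At any size of change, 6 were higher and 9 lower, with a median log2 ratio of -0.47 (-0.17 by library size alone). Col3a1 went from 1165 to 198 CPM (-2.56), Col5a1 from 1058 to 356 CPM (-1.57) and Col5a2 from 1054 to 410 CPM (-1.36), whereas the major fibril collagen Col1a1 went from 2158 to 1562 CPM (-0.47). Of 22 matrix partners (fibronectin, elastic fiber, lysyl oxidase and matricellular genes), 13 were at least 2-fold lower and 4 higher, with a median of -1.28. Fibronectin (Fn1) was at 30490 and 11270 CPM (-1.43) and thrombospondin 1 (Thbs1) at 3518 and 1406 CPM (-1.32), while Sparc (0.15) and tenascin C (Tnc, 0.50) were within 2-fold.

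Of 21 counted genes of chondroitin and dermatan sulfate synthesis, the chains of Bgn and Dcn, 7 were at least 2-fold lower and 2 higher, with a median log2 ratio of -0.62. Chpf, a chondroitin polymerase subunit, was at 399 CPM in WT-AST and 145 CPM in S89G-AST (-1.46), and Fam20b at 174 and 91.8 CPM (-0.92). The sulfotransferase Chst11 was at 134 and 43.2 CPM (-1.64), and the dermatan sulfate epimerase Dse at 146 and 41.9 CPM (-1.80). Of 9 counted genes of keratan sulfate synthesis and tyrosine sulfation, none was at least 2-fold lower and 3 were higher, with a median of 0.38. Chst2, a keratan sulfate sulfotransferase, was at 71.7 and 171 CPM (1.25) and B4galt4 at 24.8 and 52.0 CPM (1.06), while B4galt1 was at 85.1 and 100.5 CPM (0.24) and the fucosyltransferase Fut8 at 33.6 and 38.3 CPM (0.19). Among 12 counted proteases and their enhancers that process or cleave SLRPs, 5 were at least 2-fold lower and 1 higher (median -0.86). Mmp2 went from 707 to 89.7 CPM (-2.98) and Mmp14 from 749 to 231 CPM (-1.69). Pcolce was at 402 and 234 CPM (-0.78), and Bmp1, which trims the biglycan propeptide, was at 272 and 267 CPM (-0.03). Of 20 ligands and receptors, 5 were at least 2-fold higher and 3 lower (median 0.27, and 0.56 by library size alone). The decorin receptor Lrp1 was at 4460 and 2136 CPM (-1.06), while Tgfbr2 (-0.28), Igf1r (-0.12) and Lrp6 (0.07) were within 2-fold.

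Cell type marker lists also differed between the 2 AST libraries, in both directions. Of 19 counted fibroblast markers, 11 were at least 2-fold lower in S89G-AST and 2 higher, with a median log2 ratio of -2.33 and a summed level of 7163 CPM in WT-AST and 3103 CPM in S89G-AST. At any size of change, 14 were lower and 5 higher. The most abundant were Col1a1 (-0.47), Thbs2 (997 and 746 CPM, -0.42), Col3a1 (-2.56) and Col1a2 (738 and 85 CPM, -3.12). The meningeal genes Aldh1a2 (671 and 4.51 CPM) and Foxd1 (227 and 1.80 CPM) were lower still, while Prrx1 was at 109 and 216 CPM. Aldh1a2, Foxd1 and Prrx1 were chosen after their values were seen. Of the 20 fibroblast markers, 0 were at 0 reads in WT-AST and 1 in S89G-AST. The 12 mural cell markers summed to 3402 and 4070 CPM (11 counted, 4 at least 2-fold lower and 1 higher), with Pdgfrb at 929 and 158 CPM and Acta2 at 723 and 2468 CPM. Of 11 counted astrocyte markers, 9 were at least 2-fold higher and 1 lower (median 3.11). Of 9 counted NSC markers, 8 were at least 2-fold higher (median 5.87), with Sox2 at 2.37 and 188 CPM. Nestin (Nes), the most abundant NSC marker, was at 713 and 1368 CPM (0.94). The 8 microglia markers summed to 582 and 855 CPM (3 at least 2-fold higher, 1 lower), and the 10 endothelial markers to 205 and 108 CPM (9 counted, 3 higher, 4 lower). The 8 neuron markers summed to 113 and 312 CPM (5 counted, 3 higher, 1 lower), and the 7 oligodendrocyte markers to 49.8 and 278 CPM (5 counted, 2 higher). The part of any of these cell types in the SLRP values was not tested.

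**Figure D3:**
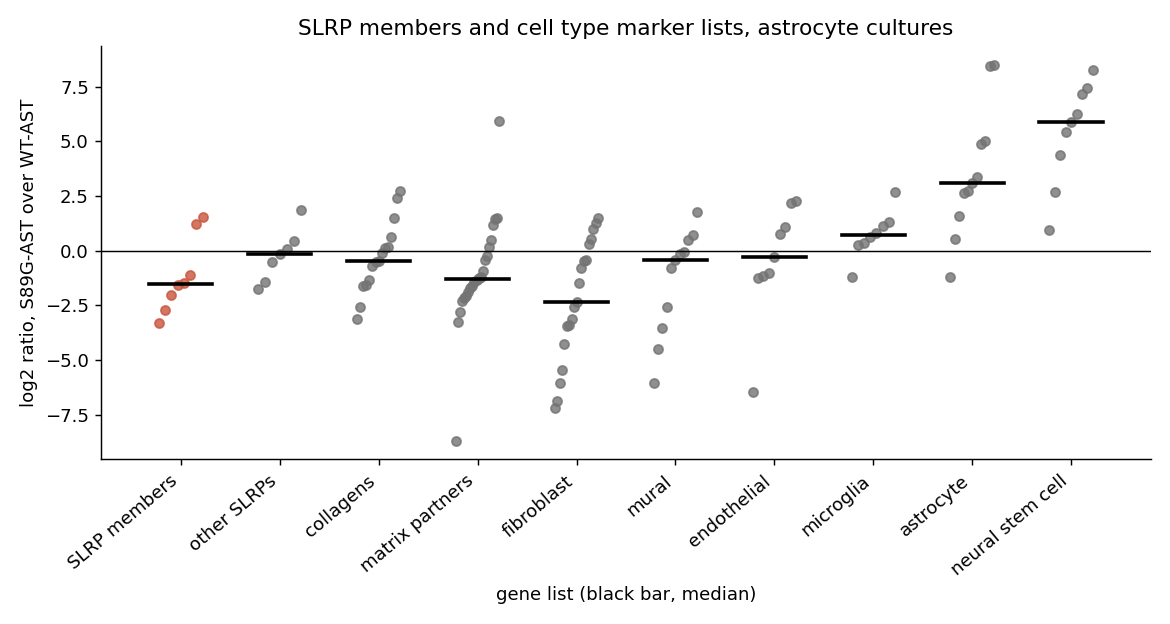
Log2 ratio of TMM-scaled CPM, S89G-AST over WT-AST, for each counted gene of the SLRP members and of related and cell type marker lists, with the median of each list as a black bar. The medians are -1.51 for the members, -2.33 for fibroblast markers, 3.11 for astrocyte markers and 5.87 for NSC markers.

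In NSCs the SLRPs were hardly detected. The 8 members together had 10, 13 and 19 reads in the 3 WT-NSC libraries and 8, 8 and 9 reads in the 3 S89G-NSC libraries. Bgn, Dcn, Lum and Fmod had 0 reads in all 6 libraries, which allows up to 1.16 to 1.28 CPM per library at a floor of 3 reads. The fibroblast genes Col1a2, Aldh1a2 and Foxd1 also had 0 reads there, and 7 of the 20 fibroblast markers had none. The AST and NSC tables were made separately, so levels are set side by side with no test across them.

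No member had enough reads to enter the NSC comparison, in which 8.76% of 11194 genes were called lower and 7.08% higher (edgeR quasi-likelihood test, Benjamini-Hochberg adjusted p under 0.05). Without the filter on low counts, edgeR gave a p for 4 members and called 0, with 1 at an unadjusted p under 0.05, and DESeq2 gave a p for 4 and an adjusted p for 1, and called 0, with 0 at an unadjusted p under 0.05. The member under 0.05 was Prelp, with 6 reads in WT-NSC and 0 in S89G-NSC (edgeR without the filter, unadjusted p = 0.0186). For the 7 members with at most 6 reads in all, no difference between genotypes was called. So few reads leave small differences undecided.

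Podn was the most counted member in NSCs, with 8, 10 and 17 reads in WT-NSC and 5, 7 and 8 in S89G-NSC. Its level was 4.65 ± 1.83 CPM in WT-NSC and 2.75 ± 0.581 CPM in S89G-NSC (SD, n = 3 each), and the lowest WT-NSC library (3.35 CPM) stood just above the highest S89G-NSC library (3.19 CPM). Every S89G-NSC library was likewise below every WT-NSC library in 13.0% of 15777 genes with at least 5 reads in all. The log2 fold change was -0.74 ± 0.39 (SE) without the filter, and it was not called (edgeR, adjusted p = 0.327; DESeq2, adjusted p = 0.669). An exact two-sided permutation test over the libraries gave p = 0.1, the smallest that 3 against 3 allows. Prelp had 2, 3 and 1 reads in WT-NSC and 0 in each S89G-NSC library, all at or under the floor, and was not called (edgeR without the filter, adjusted p = 0.157; exact permutation p = 0.1). Aspn had 2, 1 and 0 reads in S89G-NSC and none in WT-NSC, and Ogn had 0, 0 and 1 reads in WT-NSC and 1, 0 and 1 in S89G-NSC.

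**Figure D4:**
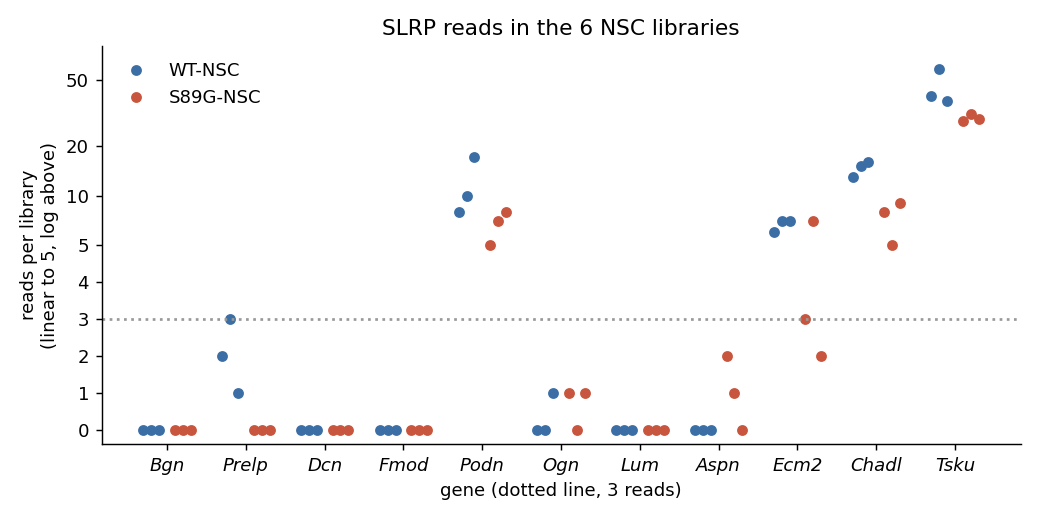
Reads per library (linear to 5, log above; dotted line, the floor of 3 reads) of the 8 SLRP members and of Ecm2, Chadl and Tsku in the 3 WT-NSC and 3 S89G-NSC libraries, 1 point per library. Of the members, Podn alone rises above the floor, with 5 to 17 reads.

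The 5 tested genes with profiles most like Podn over the 6 NSC libraries were Star, Tigd5, Gm38190, Mir124a-1hg and Zscan2, with root mean square differences of 0.141 to 0.184 in centred log2 CPM. Their mean counts were 11.5 to 17 reads per library, and none was called. Outside the members, Tsku had 17.9 ± 3.99 CPM in WT-NSC and 12.2 ± 0.894 CPM in S89G-NSC (SD, n = 3 each) and fell by 0.57 on the log2 scale (SE 0.20, edgeR adjusted p = 0.0403). That call did not hold in DESeq2 (adjusted p = 0.374), without the filter (0.0539), or without S89G-NSC replicate 1, 2 or 3 or WT-NSC replicate 2 (highest adjusted p = 0.318). Chadl had 5.86 ± 0.457 and 3.02 ± 0.784 CPM (edgeR adjusted p = 0.0636).

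The matrix, sugar chain and receptor genes of the SLRP pathways were counted in NSCs, where the SLRPs were hardly detected. Among 6 tested collagens, Col5a1 fell from 53.3 ± 5.04 to 22.2 ± 4.74 CPM, a log2 fold change of -1.27 (SE 0.14, edgeR adjusted p = 3.06e-11). Col16a1 (0.48, adjusted p = 0.000265) and Col12a1 (0.55, adjusted p = 0.00389; 0.051 without S89G-NSC replicate 1 and 0.114 by DESeq2) rose. Of 11 tested matrix partners, 5 fell and 1 rose. Tnc fell from 4661 ± 198 to 2988 ± 120 CPM (log2 fold change -0.64, adjusted p = 7.84e-19) and Sparc by 0.55 (adjusted p = 8.51e-08), while Fbln2, an elastic fiber and basement membrane protein, rose by 0.89 (adjusted p = 6.13e-19). Matn2 also fell (-0.57, adjusted p = 0.0344), a call lost in DESeq2 (0.350) and without S89G-NSC replicate 1 or 2 or WT-NSC replicate 2 (up to 0.236).

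Of 21 tested genes of chondroitin and dermatan sulfate synthesis, 4 fell and 0 rose, with a median log2 fold change of -0.21 against 0.00 over all genes. Xylt1, which starts the chain on the core protein, fell from 647 ± 24.1 to 542 ± 34.4 CPM (-0.26, edgeR adjusted p = 0.0002), and the uronyl sulfotransferase Ust fell by 0.65 (adjusted p = 9.95e-05). The calls of Csgalnact1 (adjusted p = 0.0311) and Chst7 (adjusted p = 0.0322) were lost in DESeq2 (0.314 and 0.265), and the count was 2 in DESeq2, without the filter, without S89G-NSC replicate 2 and without WT-NSC replicate 2. Of 6 tested genes of keratan sulfate synthesis and tyrosine sulfation, Chst2 fell (-0.22, adjusted p = 0.0303) and Fut8 rose (0.22, adjusted p = 0.0428), and DESeq2 called neither. The count of these calls was 0 without S89G-NSC replicate 2 or 3, and 1 without WT-NSC replicate 1, 2 or 3.

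Among 7 tested proteases, 3 fell and 1 rose. The aggrecanase Adamts5 fell from 43.3 ± 6.88 to 14.2 ± 1.22 CPM (log2 fold change -1.60, SE 0.16, edgeR adjusted p = 1.07e-12), Adamts1 fell by 0.77 (adjusted p = 4.21e-11) and Bmp1 by 0.35 (adjusted p = 0.000104). Adamts4, a related aggrecanase, rose from 42.8 ± 5.30 to 92.3 ± 7.75 CPM (1.11, adjusted p = 1.61e-13). Of 9 tested ligands and receptors, Tgfb2, whose product binds decorin and biglycan, fell from 76.4 ± 7.34 to 36.0 ± 3.05 CPM (-1.08, adjusted p = 4.47e-12), Lrp1 by 0.38 (adjusted p = 7.80e-08) and Igf1r by 0.32 (adjusted p = 0.000898), and Egfr rose by 0.18 (adjusted p = 0.00824). Beside these, 4 of 8 tested astrocyte markers rose and none fell, with a summed level of 1794 to 1840 CPM in WT-NSC and 2338 to 2376 CPM in S89G-NSC, and their part in these values was not tested. In limma fits on the deposited TPM values, which called far fewer genes in all, Tnc, Fbln2, Tgfb2, Bmp1 and Adamts4 were still called at either pseudocount and the other matrix, sugar chain, receptor and protease genes named here at neither. The fibroblast markers summed to 132 to 146 CPM in WT-NSC and 137 to 141 CPM in S89G-NSC (5 tested, 1 rose and 2 fell by edgeR). DESeq2 called only 1 fibroblast marker, which rose, and limma on the TPM values called 0.

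**Figure D5:**
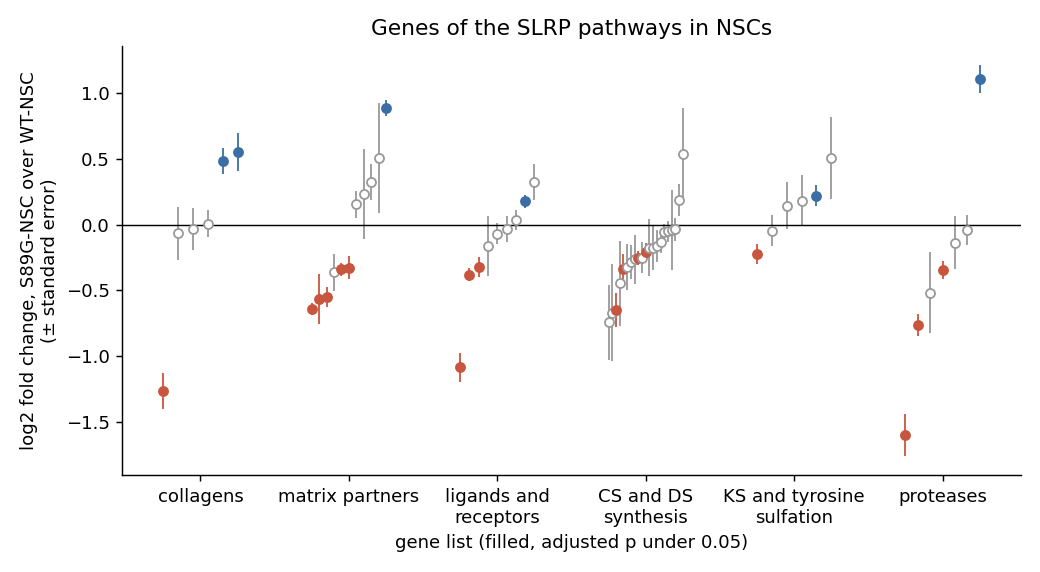
Log2 fold change (± SE), S89G-NSC over WT-NSC, of the tested genes in 6 lists of SLRP pathways, 1 point per gene (filled, edgeR adjusted p under 0.05; open, not called). Adamts5 (-1.60), Col5a1 (-1.27) and Tgfb2 (-1.08) lie lowest, and Adamts4 (1.11) lies highest.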

How the data were processed

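Total RNA of cultured astrocytes (1 library per genotype) and NSCs (3 per genotype) was sequenced. The deposited astrocyte table held counts of reads per gene and FPKM. The submitters' processing notes name TopHat2 2.0.9 and Bowtie2 2.0.6, and the counting program and build are not given in the sources used here. The authors deposited NSC counts and TPM, with HISAT2, StringTie and featureCounts on GRCm38. Some TPM values of well-counted genes are 0, so TPM was used only as an alternative.

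The members, gene lists and tests were chosen with earlier results of these data known. NSC counts were filtered (filterByExpr, minimum count 10), scaled by TMM and compared by edgeR 4.0.16 quasi-likelihood, with p-values adjusted over all 11194 genes. On simulated data, 182 of 200 genes changed 2-fold were recovered, and 10 unchanged genes were called. Alternatives used DESeq2 1.42.0, limma 3.58.1 and R 4.3.3. AST ratios have 95% counting intervals (exact Poisson and Clopper-Pearson), which cover counting error only. Same-genotype NSC libraries differed by more than sampling noise (chi-square per gene 1.07 to 1.51). All members were named. By rule, each other list names up to 4 genes (AST, most abundant; NSC, largest called change), plus the 5 genes most like Podn. In AST some lists name fewer. Gfap, S100b, Aldh1a2, Foxd1, Prrx1 and the cluster neighbours Optc, Kera and Epyc were named outside this rule. Of 24 matrix partner symbols, 22 matched.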

Additional observations from a re-analysis of the deposited data

How the results depend on the processing

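In astrocyte cultures 8 members were at least 2-fold different, and 6 to 8 were under other scalings, prior counts, filters and FPKM, except that 3 (Bgn, Dcn and Lum, all lower) passed 4-fold, where fewer pass by construction. No member changed direction in 46 recomputed ratios. Those under other count filters repeat the main value by construction, and all use the same pair of libraries. Log2 ratios ran from -2.73 to -2.43 for Bgn, -3.41 to -2.25 for Lum, -1.12 to -0.82 for Fmod and 1.53 to 1.82 for Ogn. Aspn ran from 0.46 to 1.48, with the lowest value on log2(FPKM + 1).

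In NSCs 0 members were called in any setting, but only DESeq2 (1 member) and the fit without the filter (4 members) tested any. No member was tested in the other settings, those without each replicate and with the replicate block included, so they say nothing of stability. Over all genes 1773 were called, 739 by DESeq2, 145 and 116 by limma on log2(TPM + 1) and log2(TPM + 0.1), and 1363 to 1659 without 1 library. Same-numbered libraries did not deviate together (correlations -0.02 to 0.03), and a fit with the replicate block called 1845 genes. The cause of the lower counts on TPM and by DESeq2 was not tested.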
